A study of Mus musculus with 145 samples.

Results

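Skin of the mouse back was compared 24 h after exposure to 20 mJ/cm2 from a sunbed canopy with skin of sham-handled animals taken at the same hour, 5 animals in each group, across all genes. The 10 libraries were chosen by their source labels out of the 145 libraries of the series, which covers 5 doses (sham, 5, 10, 20 and 40 mJ/cm2) and 6 times. Of the lamps' output 96.4% was UVA and 3.6% UVB. The titles number the animals one by one, and the labels tie no 2 libraries to 1 animal. No source used here gives strain, sex or age of the mice. The sham group was handled without irradiation, and no other agent is named for either group.

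The outer skin is a layer of keratinocytes that divide at the base and harden on their way to the surface. On that path they switch from Krt5 and Krt14 to Krt1 and Krt10, fill with profilaggrin and loricrin, release lipids that seal the barrier, and are shed when kallikrein proteases cut the bonds between dead cells. Damaged or fast-growing epidermis uses another programme, with the keratins Krt6 and Krt16, small proline-rich proteins and cytokines of the IL-36 family. UVB links neighbouring pyrimidines in DNA, such lesions stall RNA polymerase and are cut out by nucleotide excision repair, and the damage activates p53, which drives genes of cell cycle arrest and apoptosis.

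At 20 mJ/cm2, 15 of 18677 tested genes passed the test at an adjusted p under 0.05 (edgeR, 0.0803%). Of these, 13 were higher (0.0696%) and 2 lower (0.0107%) than in sham skin. The genes that rose encode wound keratins (Krt6b, Krt16), a cornified envelope precursor (Sprr1b), 3 members of the IL-36 family (Il1f5, Il1f6, Il1f8), a kallikrein (Klk6), enzymes of lipids and aldehydes (Cers3, Idi2, Aldh3b3, Lipg), the sugar transporter gene Slc5a1 and the peptidase gene Blmh. Wwox and Fat3 fell. At an unadjusted p under 0.05, 601 genes were higher (3.22%) and 702 lower (3.76%). The 5 values of 1 group lay wholly above those of the other for 196 genes (1.05%) and wholly below for 199 (1.07%), and all 15 called genes were among them. The median log2 fold change over all genes was -0.03.

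Sequence before the start of the called genes was taken from RefSeq on GRCm38.p6, which held an entry for 10 of the 15. Members of this kind of epidermal programme are known targets of AP-1, so the 250 bases before the start were searched for its motif. It was searched as TGANTCA, a loose form with any base at the centre, which reads the same on both strands. A match was present in 2 of the 10 genes, Sprr1b (centre base A) and Il1f8 (centre base C). Of all 32851 promoters 6.75% had a match. That share counts promoter entries, while a called gene counted once, and 10 genes are too few for a comparison. The windows of these 2 genes are shown with the match in capitals, and that of Cers3 is shown as a called barrier gene without a match. Sprr1b lies on the minus strand (chr3:92438780-92439029) and its match begins at position -111 from the start. Il1f8 lies on the plus strand (chr2:24152922-24153171) with a match at -236, and the window of Cers3 is chr7:66743254-66743503 on the plus strand. Each sequence runs 5′ to 3′ on the strand of the gene.
Sprr1b: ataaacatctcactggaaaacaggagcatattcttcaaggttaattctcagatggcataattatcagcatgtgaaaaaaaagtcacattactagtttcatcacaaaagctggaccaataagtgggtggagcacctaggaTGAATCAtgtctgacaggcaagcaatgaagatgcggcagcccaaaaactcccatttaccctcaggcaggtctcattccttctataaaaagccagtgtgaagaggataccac
Il1f8: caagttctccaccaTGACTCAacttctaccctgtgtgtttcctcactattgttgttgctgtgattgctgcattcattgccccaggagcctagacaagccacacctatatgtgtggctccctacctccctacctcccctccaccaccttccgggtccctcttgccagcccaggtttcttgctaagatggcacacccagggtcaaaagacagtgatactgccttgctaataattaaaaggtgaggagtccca
Cers3: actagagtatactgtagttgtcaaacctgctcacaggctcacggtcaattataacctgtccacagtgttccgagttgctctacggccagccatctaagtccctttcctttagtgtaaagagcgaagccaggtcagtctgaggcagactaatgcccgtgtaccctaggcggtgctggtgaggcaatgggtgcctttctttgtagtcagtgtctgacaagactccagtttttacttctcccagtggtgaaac

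Levels are given as CPM, the counts of a gene relative to the scaled total of its library, and are listed for replicates 1 to 5 of a group. Fold changes are log2 values ± SE with n = 5 in each group, except that the group of 20 mJ/cm2 at 48 h had 4 animals. Total counts ran from 9.23 M to 36.1 M in the sham libraries and from 8.59 M to 16.7 M in those of 20 mJ/cm2. Correlations of log2 CPM between animals of a group lay between 0.926 and 0.977, and no pair was close enough to be 1 library deposited more than once (smallest chi-square per degree of freedom 15.2). Mitochondrial transcripts took 2.91% to 11.5% of the counts in sham and 3.04% to 9.3% at 20 mJ/cm2. Beside keratinocyte and fibroblast markers, the samples held skeletal muscle, whose 24 markers had a mean log2 CPM of 10.03 to 10.65 in sham and 9.81 to 10.4 at 20 mJ/cm2. In such whole-tissue samples, fewer cells of a type and less RNA per cell cannot be told apart.

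**Figure D1:**
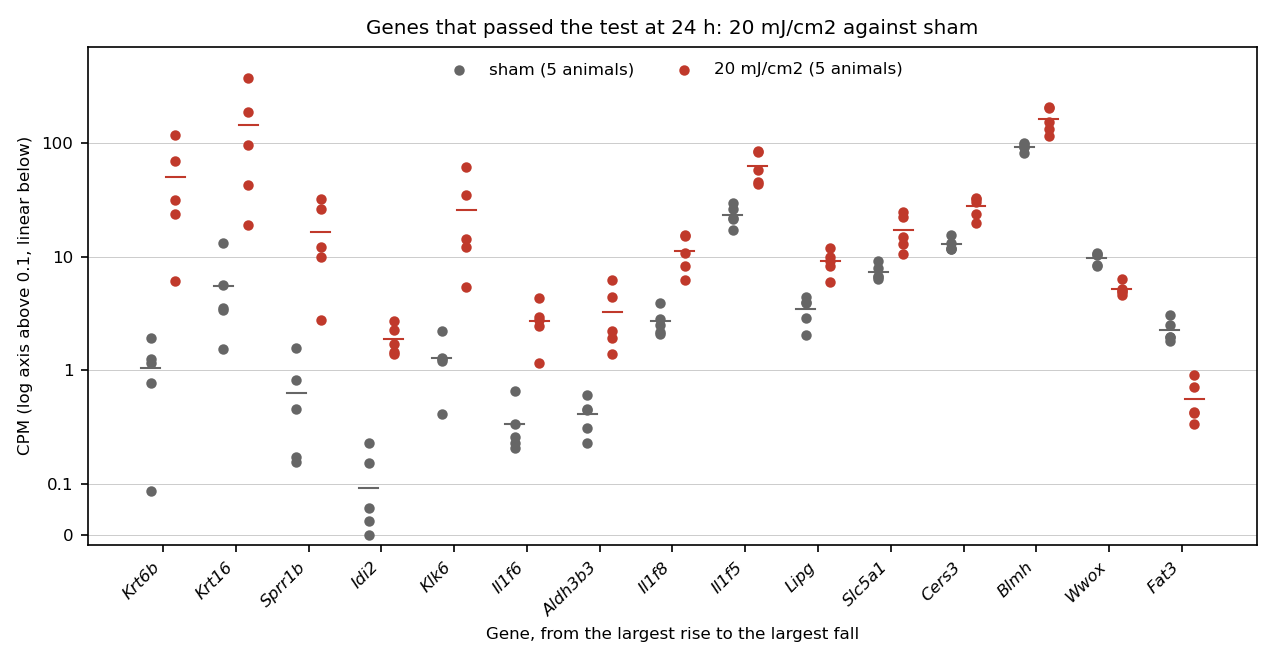
CPM of the 15 genes that passed the test, 1 point per animal (grey sham, red 20 mJ/cm2, 5 each), with horizontal lines at the group means, on an axis that is logarithmic above 0.1 and linear below. For each gene the 2 groups occupy separate ranges, and the irradiated animals differ most among themselves for Krt6b, Krt16, Sprr1b and Klk6.

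Among the keratins, Krt6b, a keratin known from wound edges, showed the largest rise of the called genes. Its level was 0.779, 1.17, 0.0862, 1.27 and 1.91 CPM in the sham animals and 6.08, 69.3, 31.8, 118 and 24 CPM at 20 mJ/cm2. Every irradiated animal was above every sham animal, but they spread about as widely as their mean of 49.8 ± 44.5 CPM (SD). The log2 fold change was 5.49 ± 0.81 (adjusted p = 0.00846). Its partner Krt16 measured 3.38, 5.66, 1.55, 3.57 and 13.2 CPM in sham skin and 18.9, 187, 42.8, 377 and 95.5 CPM after exposure, a log2 change of 4.67 ± 0.85 (adjusted p = 0.0329). Replicates 2 and 4 were the highest for both genes and replicate 1 the lowest. Krt6a, a close copy of Krt6b with which reads can be shared, had overlapping groups and a log2 change of 1.80 ± 0.46 (adjusted p = 0.19). Krt17, also found in hair follicles, had 1.18 ± 0.68.

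Sprr1b, a small proline-rich protein that is cross-linked into the cornified envelope, ranked the irradiated animals as Krt16 did. The sham values were 0.156, 0.816, 0.172, 0.461 and 1.57 CPM and the irradiated ones 2.77, 26.4, 9.95, 31.9 and 12.2 CPM, a rise of 4.56 ± 0.81 (adjusted p = 0.0329). Of the 15 small proline-rich genes tested, 12 had higher fitted values and 9 an unadjusted p under 0.05, all higher, against 3.22% of all genes. Sprr1a (1.95 ± 0.50) and Sprr2h (3.50 ± 0.76) had separate groups but did not pass (adjusted p = 0.198 and 0.101), and the Sprr2 genes resemble each other closely enough for single values to be uncertain. All 6 late cornified envelope genes of group 3, which are known from repairing and psoriatic epidermis, had higher fitted values, with a median log2 change of 3.49, from few reads.

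The IL-36 family consists of agonists that act on keratinocytes and leukocytes through the receptor Il1rl2, and of an antagonist. The agonist genes Il1f6 (IL-36 alpha) and Il1f8 (IL-36 beta) rose. Il1f6 stood at 0.208, 0.663, 0.259, 0.23 and 0.339 CPM in sham and at 2.45, 2.77, 2.95, 4.35 and 1.17 CPM after exposure, from 35 and 141 reads in all, with a log2 change of 2.93 ± 0.53 (adjusted p = 0.0329). Il1f8 went from a mean of 2.71 ± 0.741 to 11.2 ± 4.1 CPM (SD), a change of 2.02 ± 0.40 (adjusted p = 0.0496). The third agonist gene, Il1f9 (IL-36 gamma), measured 4.21 to 8.31 CPM in sham and 11.3 to 21.2 CPM after exposure without passing (1.62 ± 0.35, adjusted p = 0.101). The antagonist gene Il1f5 rose as well, from 21.3, 26.5, 17.1, 22 and 29.6 CPM to 58.3, 84.3, 45.7, 83.8 and 43.7 CPM (1.45 ± 0.28, adjusted p = 0.0491). The receptor gene Il1rl2 had a log2 change of -0.04. In 4 of the 5 genes of this family the groups did not overlap, against 1.05% of all genes in the higher direction.

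Of 34 tested genes in a list of stressed keratinocytes, which includes Krt6b, Krt16, Sprr1b, Il1f6 and Il1f8, these 5 were called higher, against 0.0696% of all genes. In the list 21 members had an unadjusted p under 0.05 in the higher direction and none in the lower, and 13 had separate groups (3.22% and 1.05% of all genes). The median log2 change of the list was 1.99. Passing and being called refer to edgeR throughout, unless DESeq2 is named, whose 101 calls included genes that did not pass in edgeR, such as Krt6a, Il1f9, Tgm1, Klk7 and Psrc1. The mean log2 CPM of the list was -0.01, 0.68, 0.1, 0.25 and 1.05 in the sham animals and 1.41, 2.45, 2.06, 3 and 1.77 in the irradiated ones, so that the lowest irradiated animal lay above the highest sham animal. DESeq2 called 10 of the 34, all higher, against 80 of all 18677 genes in that direction. The alarmins S100a8 (-0.19 ± 0.71) and S100a9 (0.11) stood in this list with overlapping groups.

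Hair shaft and matrix markers had higher fitted values as well. This held for all 23 tested markers, 12 with an unadjusted p under 0.05 (3.22% of all genes), and their median log2 change was 2.60. It was not particular to this dose. Against the same sham animals, the hair medians were 1.5 at 5, 1.76 at 10 and 2.02 at 40 mJ/cm2. Those of the stressed keratinocyte list were 0.32, 0.22 and 2.84 at these doses. Their mean log2 CPM was -1.08, -0.9, -1.14, -1.32 and -0.1 in sham and -0.79, 1.1, -0.49, 2.55 and -1.13 at 20 mJ/cm2. Replicates 2 and 4, the animals with the highest Krt6b, Krt16 and Sprr1b, stood above all sham animals in hair markers, and the other 3 lay within the sham range. The inner root sheath keratin Krt71 shows the spread, with 17.5, 50.9, 19.2, 339 and 11.8 CPM at 20 mJ/cm2 against 6.2 to 26.5 CPM in sham. Melanocyte genes also had higher fitted values in 11 of 12 cases (median 1.20), led by replicate 4, whose melanocyte level of 3.27 compared with 1.19 to 1.76 in sham. Their medians were 1 at 5, 1.7 at 10 and 2.09 at 40 mJ/cm2. The title of replicate 4 marks it as a repeat. The part of hair and melanocyte RNA in the rise of the stressed keratinocyte genes was not tested. The fits that follow give values only.

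With the hair marker level as a covariate, Krt6b and Idi2 kept their calls and no other gene was called. In that fit 29 of the 34 stressed keratinocyte genes had higher fitted values, with a median of 2.13. Krt6b had 4.82 ± 0.8, Krt16 3.83 ± 0.79, Sprr1b 4.05 ± 0.8 and Il1f6 2.87 ± 0.58. Without replicates 2 and 4, a choice made after seeing the data, no gene was called and 698 had an unadjusted p under 0.05 (edgeR). In that fit with 3 irradiated animals the median of the stressed keratinocyte list was 1.74 and that of the hair markers -0.02. The median of the melanocyte genes was 0.12 in that fit and -0.07 with the hair covariate. Without replicates 2 and 4, the log2 change of Krt6b was 4.22 ± 0.75, of Krt16 3.22 ± 0.78, of Sprr1b 3.57 ± 0.81 and of Il1f6 2.63 ± 0.60. Each of these values was positive and smaller than over all 5 animals. The 2 animals left out were the highest irradiated ones for Krt6b, Krt16, Sprr1b and hair markers. Lower values there followed from that choice, so this fit cannot test the part of hair RNA.

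**Figure D2:**
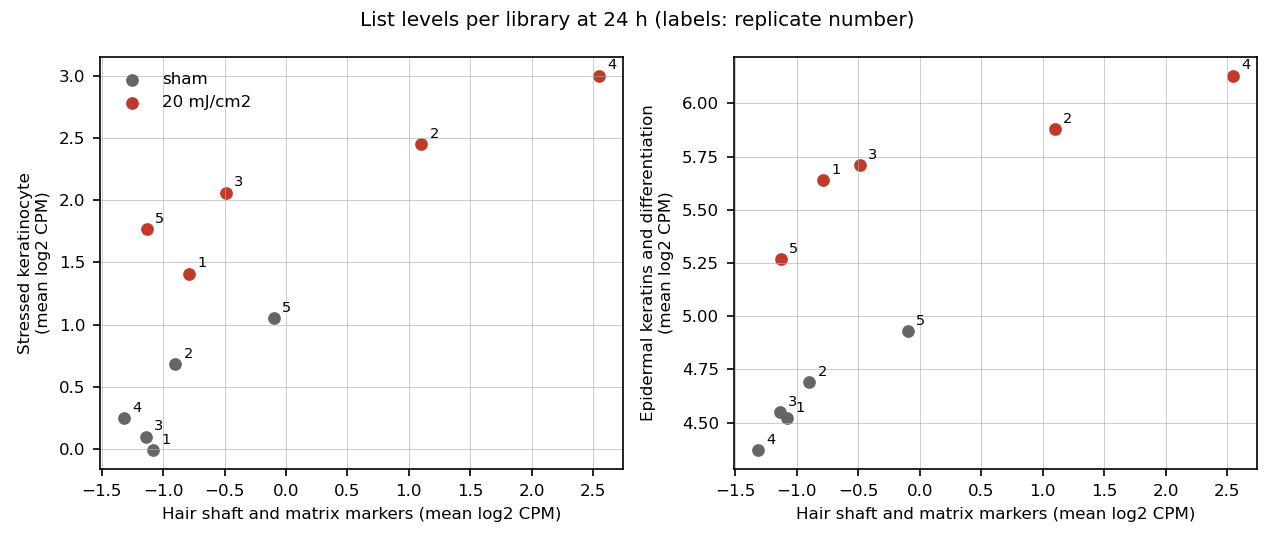
Mean log2 CPM of the stressed keratinocyte list (left) and of the differentiation list (right) against that of hair shaft and matrix markers, 1 point per library, labelled by replicate number (grey sham, red 20 mJ/cm2). Replicates 2 and 4 of the irradiated group lie to the right at 1.1 and 2.55, and replicates 1, 3 and 5 lie above the sham animals in both panels at hair levels of -0.79, -0.49 and -1.13.

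Genes of orderly epidermal differentiation had higher fitted values too. Of 43 tested keratins and cornified envelope genes, 40 had higher fitted values and 28 an unadjusted p under 0.05, all in the higher direction, against 3.22% of all genes. The median log2 change was 1.07. None passed the adjustment over all genes in edgeR, and DESeq2 called 6, all higher, against 80 of all 18677 genes. The mean log2 CPM of the list was 4.52, 4.69, 4.55, 4.37 and 4.93 in sham and 5.64, 5.88, 5.71, 6.13 and 5.27 after exposure, without overlap. The 14 late cornified envelope genes of group 1, typical of healthy upper epidermis, all had higher fitted values (median 1.12).

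The members lay along the path from the middle layers to the surface. The basal keratins Krt5 (0.46 ± 0.43) and Krt14 (1.00 ± 0.72) had overlapping groups, and Krt15 had -0.17 ± 0.37. For Krt10, the main keratin of the spinous layer, sham animals measured 2740, 2530, 2500, 2580 and 4320 CPM and irradiated animals 4770, 4120, 4580, 3700 and 3990 CPM. Sham replicate 5 overlapped the irradiated animals there, and the log2 change was 0.53 ± 0.22 (adjusted p = 0.626). Genes of the later steps varied in size. Tgm1, the transglutaminase that cross-links the envelope, stood at 7.53, 6.37, 6.29, 6.57 and 11 CPM in sham and 37, 30.6, 16.4, 51.3 and 20.6 CPM after exposure (2.04 ± 0.50, adjusted p = 0.174). Lor, which encodes loricrin, differed by 0.97 ± 0.41 and the filaggrin relative Hrnr by 2.07 ± 0.57, with sham and irradiated animals overlapping for both.

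A route from filaggrin to the small molecules of the horny layer could be followed gene by gene, although these genes were picked after their values were seen. Flg, the profilaggrin gene, had a mean of 16.7 ± 7.91 CPM in sham and 70.3 ± 37.1 CPM (SD) after exposure (2.06 ± 0.56, adjusted p = 0.253). Asprv1, a protease that trims profilaggrin, measured 45.4 to 88.5 CPM and 133 to 360 CPM (1.92 ± 0.58). Casp14, a protease of the same route, measured 23.2 to 42.3 CPM in sham and 45.6 to 109 CPM after exposure (1.25 ± 0.26, adjusted p = 0.0748). Blmh, the hydrolase that takes filaggrin fragments down to amino acids, was called. It rose from 82.1, 100, 92.3, 92.6 and 97.6 CPM to 152, 209, 116, 202 and 133 CPM, a change of 0.80 ± 0.15 (adjusted p = 0.0465). Hal, the histidase that turns histidine into the ultraviolet absorber urocanic acid, stood at 47, 54, 45.5, 58.6 and 82.8 CPM in sham and at 123, 126, 104, 129 and 65 CPM after exposure (0.98 ± 0.28, adjusted p = 0.289). Only replicate 5 of the irradiated group fell within the sham range of Hal.

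Barrier lipid enzymes formed the next group. Cers3, the synthase of ceramides with very long chains, rose from 11.8, 11.7, 15.5, 13.2 and 12 CPM to 32.5, 32.9, 23.6, 30.4 and 19.7 CPM (1.11 ± 0.20, adjusted p = 0.0329). It was the called member among 33 tested genes of the list (0.0696% of all genes were called higher), of which 30 had higher fitted values and 15 an unadjusted p under 0.05, all higher (3.22% of all genes). The median log2 change was 0.63, and the list level of 4.8 to 5.04 in sham and 5.5 to 5.83 after exposure did not overlap. Enzymes that oxidise the linoleate of these ceramides had separate groups without passing, namely Alox12b (6.72 to 9.71 against 16.7 to 43 CPM, 1.95 ± 0.49), Aloxe3 (1.13 ± 0.39) and Sdr9c7 (1.77 ± 0.50). The lipid transporter Abca12 had 0.78 ± 0.23 with groups that overlapped.

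The list of shedding proteases and their inhibitors, which includes kallikreins, had higher fitted values in 22 of 29 cases (median 0.62). At an unadjusted p under 0.05, 11 were higher and 1 lower (3.22% and 3.76% of all genes). Klk6 was the called member, at 0.415, 1.22, 1.29, 1.27 and 2.24 CPM in sham and 5.44, 34.8, 12.3, 61.3 and 14.2 CPM in irradiated skin, a rise of 4.26 ± 0.83 (adjusted p = 0.0491). Here again replicates 4 and 2 were the highest. All 10 genes from Klk5 to Klk14 had higher fitted values, 9 of them with an unadjusted p under 0.05 and 8 with separate groups (3.22% and 1.05% of all genes), with log2 changes from 0.70 to 4.26. Klk14 was among them with only a few reads, at 0 CPM in 3 sham animals. Klk7, which cuts the corneodesmosomes, measured 58.7, 72.8, 81.1, 79.9 and 59.4 CPM in sham and 223, 254, 179, 319 and 103 CPM after exposure (1.62 ± 0.39, adjusted p = 0.153). Klk5, its activator, had 1.15 ± 0.27 and Klk13 2.66 ± 0.55 (adjusted p = 0.132 and 0.0683). Spink5, an inhibitor of these proteases, had 0.40 ± 0.31 with overlapping groups. Of the substrates, the desmosomal cadherin Dsc1 had 1.45 ± 0.34 and separate groups, and corneodesmosin (Cdsn) 1.49 ± 0.52.

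Of 28 genes of desmosomes, tight junctions and connexins, 7 had an unadjusted p under 0.05, all higher (3.22% of all genes), with a median of 0.32. They included the epidermal connexin Gjb6 (1.20 ± 0.35), while Cdh1, the cadherin of adherens junctions, had 0.09 ± 0.13. In mean log2 CPM, none of the irradiated animals reached into the sham range for the 4 lists of differentiation, lipids, shedding and junctions, while the summed CPM of each of these lists overlapped between the groups. Basement membrane genes and keratinocyte integrins had a median of -0.01 and 1 of 19 members with an unadjusted p under 0.05, in the lower direction (3.76% of all genes).

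**Figure D3:**
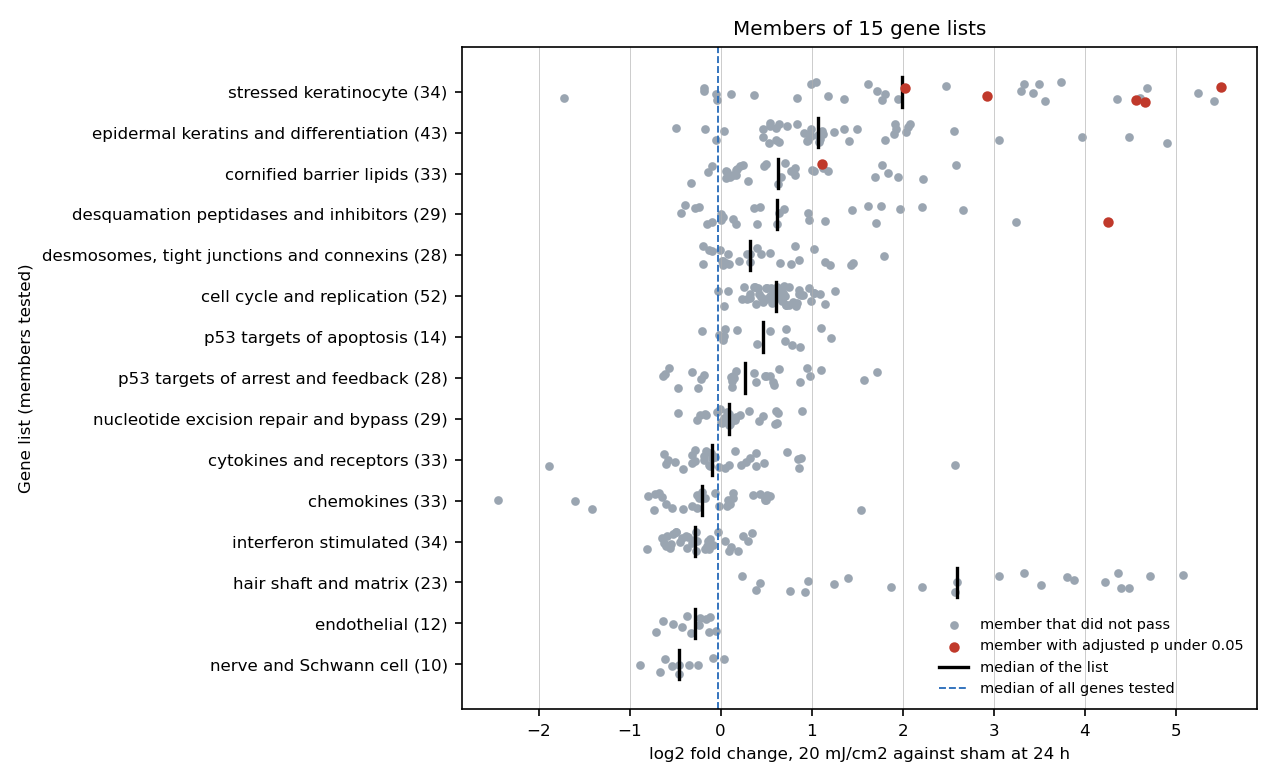
Log2 fold change of each tested member of 15 gene lists (red if adjusted p was under 0.05, grey if not), with the median of each list as a black bar and that of all genes as a dashed line. The stressed keratinocyte and hair lists have medians of 1.99 and 2.60, the differentiation list 1.07, and the interferon, endothelial and nerve lists lie below 0.

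The remaining called genes encode enzymes and transporters. Idi2, an isopentenyl diphosphate isomerase of sterol synthesis, gave 7 reads in the 5 sham libraries together and 104 after exposure. Its levels were 0.0519, 0.153, 0, 0.23 and 0.0261 CPM and 1.39, 2.26, 2.74, 1.7 and 1.45 CPM (4.47 ± 0.67, adjusted p = 0.00846). The 5 irradiated animals were close together here, unlike for the keratins. Slc5a1, a sodium and glucose cotransporter, went from 7.37 ± 1.19 to 17.1 ± 6.18 CPM (SD), a change of 1.20 ± 0.20 (adjusted p = 0.0284). Aldh3b3, an aldehyde dehydrogenase, rose by 2.87 ± 0.52 and Lipg, a lipase of phospholipids, by 1.39 ± 0.26 (adjusted p = 0.0329 and 0.0384). Lipg measured 2.03 to 4.44 CPM in sham and 5.99 to 12 CPM after exposure, and the animal order of Krt6b was not seen for it, since replicate 5 came second.

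The calls rested on single animals to differing degrees. Leaving out 1 of the 10 libraries gave between 0 calls (without sham replicate 1, 1306 genes then having an unadjusted p under 0.05) and 26 (without 20 mJ/cm2 replicate 3). Krt6b and Idi2 were called in 9 of these 10 fits, Slc5a1 in 5, Sprr1b and Krt16 in 4, and Fat3 and Il1f8 in 1. The sign of all 15 stayed the same throughout. Just inside the threshold were Il1f8 (0.0496), Il1f5, Fat3 and Klk6 (0.0491 each), and just outside were Cdh13 (0.0515), Reln (0.0634) and Slc34a2 (0.0675).

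Growth factor genes divided by member. Tgfa, a ligand of the EGF receptor made by keratinocytes, measured 7.22, 8.72, 5, 5.99 and 10.2 CPM in sham and 16.2, 18.4, 11.3, 23.5 and 13.9 CPM after exposure (1.15 ± 0.24, adjusted p = 0.0748). Epgn had 2.13 ± 0.58 and Ereg 1.63 ± 0.63 with overlapping groups, and Areg 1.30 ± 0.59. Egf itself was lower in value in each irradiated animal (28.1 to 40 against 16.6 to 27.7 CPM, -0.49 ± 0.17, adjusted p = 0.458). In all, 5 of the 16 ligands, receptors and feedback genes had an unadjusted p under 0.05 in the higher direction and 2 in the lower (3.22% and 3.76% of all genes).

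Genes of the p53 response gave smaller values. Cdkn1a, the p21 inhibitor of the cell cycle, stood at 111, 109, 76.1, 97.8 and 157 CPM in sham and at 200, 231, 76.9, 268 and 242 CPM after exposure, where replicate 3 kept to the sham range (0.87 ± 0.32, adjusted p = 0.51). Psrc1, another target, had 1.72 ± 0.41 and the mRNA-binding Zmat3 0.58 ± 0.15. Among targets of apoptosis, the death receptor Tnfrsf10b had 0.79 ± 0.29 and the BH3 gene Pmaip1 0.71 ± 0.31. Mdm2, the feedback inhibitor of p53, had 0.15 ± 0.18. Of 28 targets of arrest and feedback, 7 were higher and 1 lower at an unadjusted p under 0.05 (median 0.27), and of 14 targets of apoptosis 4 were higher (median 0.47). The shares of all genes were 3.22% higher and 3.76% lower. None of these targets was called in edgeR, and DESeq2 called 3 of the arrest list, all higher, against 80 of all 18677 genes. Replicate 3 had the lowest level of the arrest list at 5.15, against 5.52 to 5.66 in the other 4 irradiated animals and 5.09 to 5.26 in sham. Of 29 genes of excision repair and lesion bypass none had an unadjusted p under 0.05, with the damage sensors Xpc at -0.04 ± 0.21 and Ddb2 at -0.23 ± 0.17.

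Cell cycle and replication genes had higher fitted values in 51 of 52 cases with a median of 0.61. Of these, 20 had an unadjusted p under 0.05, all higher, against 3.22% of all genes. No member passed in edgeR or in DESeq2. Against the same sham animals, the list median was 0.52 at 5, 1.01 at 10 and 1.05 at 40 mJ/cm2. Set directly against 10 mJ/cm2, 41 of the 52 had lower fitted values at 20 mJ/cm2 (median -0.31). At an unadjusted p under 0.05, 5 were lower there and none higher, where 593 of all 18677 genes were lower. Uhrf1, which couples DNA methylation to replication, measured 8.99 to 19.3 CPM in sham and 16.9 to 48.1 CPM after exposure (1.15 ± 0.36, adjusted p = 0.374), and the mitotic kinase Cdk1 had 1.03 ± 0.36. The list level ran from 3.36 to 4.03 in sham and was 4.3, 4.2, 3.82, 4.9 and 4.35 in the irradiated animals, with replicate 3 inside the sham range and replicate 4 at the top. With the hair marker level as a covariate the median was 0.23, and without replicates 2 and 4 it was 0.42. Over the R1_001 libraries alone it was 0.26, and over the R1 libraries alone, which include replicate 4, it was 1.13. The proliferation marker Mki67 also ended highest in replicate 4 (132 CPM against 66 to 78.8 CPM in the other 4).

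Cytokine and chemokine genes outside the IL-36 family lay on both sides of 0, with higher fitted values in 14 of 33 and 13 of 33 cases. Of 33 cytokines and receptors, 1 was higher and 1 lower at an unadjusted p under 0.05, and of 33 chemokines 2 and 1. These counts lie near the shares of all genes (3.22% higher and 3.76% lower). The higher cytokine was Il18 (0.86 ± 0.36) and the chemokine Ccl20, a ligand for CCR6 on dendritic and Th17 cells, had 1.54 ± 0.65. The neutrophil attractants Cxcl1 and Cxcl2 had -1.42 ± 0.85 and -2.44 ± 1.13 from low levels, and Il1b had -0.62 ± 0.72. Of 34 interferon-stimulated genes 27 had lower fitted values (median -0.28), none with an unadjusted p under 0.05. The median of that list was -0.56 over the R1_001 libraries alone and 0.12 over the R1 libraries alone. The acute phase list had higher fitted values in 16 of 17 cases (median 0.34), 2 of them with an unadjusted p under 0.05, against 3.22% of all genes. Markers of T cells, macrophages, neutrophils and Langerhans cells had medians of -0.09, -0.16, -0.19 and 0.06.

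Endothelial and nerve markers lay on the lower side. All 12 endothelial markers had lower fitted values (median -0.28), 3 with an unadjusted p under 0.05, against 3.76% of all genes in the lower direction. The list level was 4.38 to 4.82 in sham and 4.11 to 4.39 at 20 mJ/cm2. Of 10 nerve and Schwann cell markers 9 were lower in value, with a median of -0.46. Among them was the myelin gene Pmp22 (-0.53 ± 0.15), with overlapping groups. Outside the list, the Schwann cell dystrophin relative Drp2 (-1.02 ± 0.23) and the axonal potassium channel Kcna1 (-1.10 ± 0.25) had separate groups, and neither passed in edgeR (adjusted p = 0.132 for both), while DESeq2 called both. Muscle markers were lower in value in 21 of 24 cases (median -0.21).

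The 2 genes that fell are both very long. Wwox, an oxidoreductase with WW domains that spans 913 kb, stood at 10.7, 10.6, 10.3, 8.52 and 8.35 CPM in sham and at 5.23, 4.93, 6.4, 4.56 and 5.02 CPM after exposure (-0.89 ± 0.16, adjusted p = 0.0329). Fat3, an atypical cadherin of 591 kb, fell from 1.82, 2.5, 3.1, 1.96 and 1.96 CPM to 0.427, 0.719, 0.914, 0.424 and 0.335 CPM (-2.03 ± 0.40, adjusted p = 0.0491). Other long genes had lower values with separate groups, such as the adhesion gene Cdh13 (1040 kb, -0.58 ± 0.12), the secreted Reln (460 kb, -0.90 ± 0.18) and Fhit (1610 kb, -1.66 ± 0.40). Spans are those of GENCODE vM21.

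Over all protein-coding genes, longer spans went with lower fitted values. Among 3881 genes under 10 kb, 34.9% had lower fitted values and the median log2 change was 0.16. Among the 159 genes over 500 kb, 93.1% had lower fitted values, against 52.8% of all genes tested, the median was -0.49, 28.9% had an unadjusted p under 0.05 in the lower direction, against 3.76% of all genes, and 13.2% had groups wholly below sham, against 1.07%. Their mean log2 CPM was 2.97, 3.05, 3.26, 3.22 and 2.79 in sham and 2.4, 2.6, 3.02, 2.33 and 2.27 after exposure, so that 4 of the 5 irradiated animals lay below all sham animals and replicate 3 lay among them. Replicate 3 also had the highest mitochondrial share of the irradiated libraries (9.3%). Within each group this level rose in the order of the mitochondrial share, whose median was 7.12% in sham and 4.72% at 20 mJ/cm2. The cause of this was not tested. The median of the longest class was -0.46 without replicates 2 and 4 and -0.50 with the hair covariate. It was -0.37 with the mitochondrial share as a covariate and -0.34 with 2 surrogate variables. The median of genes under 10 kb was 0.06 with the mitochondrial share and 0.02 with 2 surrogate variables. For the genes over 500 kb at 24 h, the median was -0.51 at 40 mJ/cm2 and -0.11 at 10 mJ/cm2, against the same sham animals. At 20 mJ/cm2 the median of these long genes was -0.65 at 6 h and -0.58 at 48 h, each against its own sham group.

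**Figure D4:**
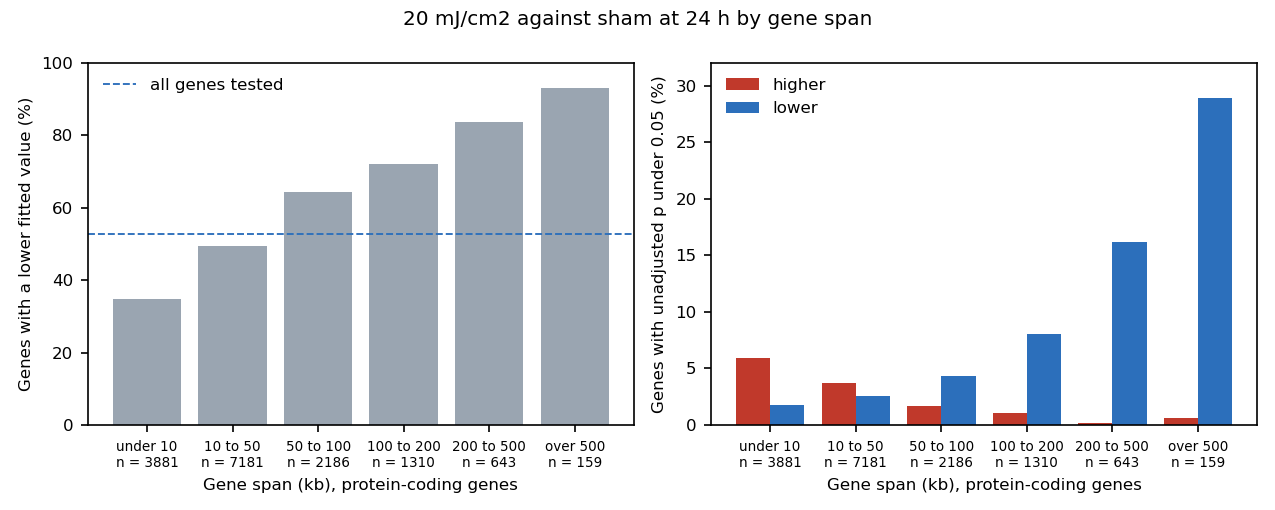
Protein-coding genes in 6 classes of genomic span, as the percentage with a lower fitted value at 20 mJ/cm2 (left, dashed line for all genes tested) and the percentage with an unadjusted p under 0.05 in each direction (right). The share with lower values climbs from 34.9% under 10 kb to 93.1% over 500 kb.

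How the 20 mJ/cm2 animals stood against the doses on either side was tested directly in the fit of all 25 libraries of 24 h. Against 10 mJ/cm2, 10 genes were called, all higher at 20 mJ/cm2 (0.0535%). They included Krt6b (4.46 ± 0.78, adjusted p = 0.0193), Il1f6 (3.20 ± 0.56), Il1f5 (1.53 ± 0.29), Idi2 (4.85 ± 0.71), Slc5a1 (1.38 ± 0.20), the protease inhibitor Wfdc5 (1.95 ± 0.32), the acute phase gene Orm1 (1.40 ± 0.26) and the haem-binding Hebp2 (0.65 ± 0.11). Il1f5 measured 23 ± 9.48 CPM (SD) at 10 mJ/cm2 beside a sham level of 23.3 ± 4.82 CPM. Krt6b had 2.26 ± 1.5 CPM beside 1.04 ± 0.67 CPM. Of the 43 differentiation genes, 40 had higher fitted values at 20 than at 10 mJ/cm2 and 23 had an unadjusted p under 0.05, all higher, against 2.82% of all genes. The order of doses was not even, since the list median against sham was 0.67 at 5 and -0.01 at 10 mJ/cm2. It was 1.07 at 20 and 0.04 at 40 mJ/cm2. Against sham, edgeR called 0 genes at 10 and 0 at 5 mJ/cm2, with 837 (4.48%) and 459 (2.46%) at an unadjusted p under 0.05. At 40 mJ/cm2 it called 545 of 18677 genes against the same sham animals, among them 15 of the 34 in the stressed keratinocyte list.

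Against 40 mJ/cm2, 31 genes were called (0.166%), 11 higher (0.0589%) and 20 lower (0.107%) at the higher dose. This contrast uses the same 20 mJ/cm2 animals as that against sham. Of the 43 differentiation genes 37 had lower fitted values at 40 than at 20 mJ/cm2, 25 with an unadjusted p under 0.05 and all of these lower, against 4.43% of all genes, and the median was -1.11. Krt77, a suprabasal keratin, was called, with 2650 ± 543 CPM at 20 and 1010 ± 189 CPM (SD) at 40 mJ/cm2 (-1.41 ± 0.24, adjusted p = 0.0136). Hal was called as well, at 35 ± 11.7 CPM after 40 mJ/cm2 (-1.66 ± 0.29, adjusted p = 0.0161). At 5 mJ/cm2, Krt77 had 2180 ± 775 CPM and Hal 89.6 ± 46 CPM (SD). All 14 late cornified envelope genes of group 1 were lower in value at 40 mJ/cm2 (median -1.46), and 5 of the 6 of group 3 were higher (median 1.44).

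Of the 5 genes of the IL-36 family, 4 had lower fitted values at 40 than at 20 mJ/cm2 (median -1.07). Il1f5 averaged 63.2 ± 19.9 CPM at 20 and 25.7 ± 8.09 CPM at 40 mJ/cm2 (-1.32 ± 0.28, adjusted p = 0.0536), and Il1f6 2.74 ± 1.14 and 0.728 ± 0.395 CPM (-1.82 ± 0.50, adjusted p = 0.132). Krt6b had 49.8 ± 44.5 and 126 ± 84.3 CPM (1.37 ± 0.67) and Krt16 144 ± 145 and 297 ± 203 CPM (1.11 ± 0.74), and neither difference passed the test. Of the stressed keratinocyte list, 11 members were higher and 4 lower at 40 than at 20 mJ/cm2 at an unadjusted p under 0.05, against 6.84% and 4.43% of all genes.

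Some genes called higher at 40 than at 20 mJ/cm2 had overlapped with sham at 20 mJ/cm2. Tnc, a matrix protein of wounds, measured 22.7 ± 7.55 CPM in sham, 26.9 CPM at 20 (21.3 to 44.8 CPM) and 154 ± 104 CPM (SD) at 40 mJ/cm2, a step of 2.52 ± 0.37 between the last 2 (adjusted p = 0.0136). Pdpn, the podoplanin gene, measured 49.7 ± 9.39, 56.5 ± 18.9 and 153 ± 54.1 CPM (1.43 ± 0.23), and the hyaluronan-binding Tnfaip6 12.7 ± 5.79 and 55.3 ± 38.2 CPM at 20 and 40 mJ/cm2 (2.12 ± 0.42). The T cell receptor subunit gene Cd3e was 4.88 ± 1.53 CPM in sham skin and 4.77 ± 1.17 CPM at 20 mJ/cm2 (-0.03 ± 0.25), and 1.92 ± 0.615 CPM after 40 mJ/cm2, where it was called lower (-1.30 ± 0.26, adjusted p = 0.0345). The calcium exchanger gene Slc24a3 was called lower at 40 mJ/cm2 too (-1.56 ± 0.25), from 22.3 ± 7.2 to 7.46 ± 3.6 CPM, after 33.2 ± 1.81 CPM in sham. The count of 31 depended on 20 mJ/cm2 animals, being 0 without replicate 1 (1543 at an unadjusted p under 0.05, edgeR) and 72 without replicate 4.

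**Figure D5:**
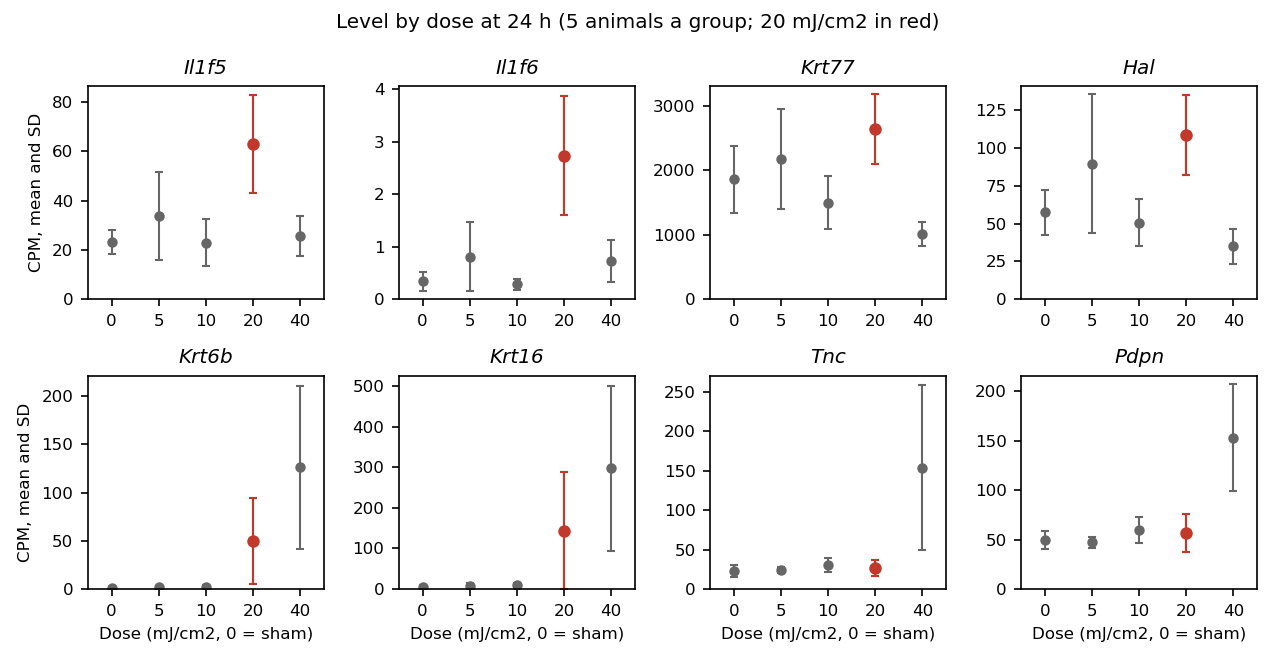
Mean CPM with SD (lower bars end at 0) of 8 genes in the 5 groups of 24 h, 5 animals each, with 20 mJ/cm2 in red and 0 marking sham. Il1f5, Il1f6, Krt77 and Hal are highest at 20 mJ/cm2, Krt6b and Krt16 are higher still at 40 mJ/cm2, and the means of Tnc and Pdpn are highest at 40 mJ/cm2.

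Over time, the effect of 20 mJ/cm2 at 24 h was set against that at 6 h and at 48 h, each relative to sham animals of its own hour, where 77 genes were called at 6 h (0.412%) and 98 at 48 h (0.525%). No gene passed the test of either difference in edgeR, with 1016 (5.44%) and 1000 (5.35%) genes at an unadjusted p under 0.05, and DESeq2 called 20 and 17. The differentiation list had medians of -0.05, 1.07 and 1.01 at 6, 24 and 48 h. In the test of 24 h against 6 h, 16 of its 43 members were higher at 24 h at an unadjusted p under 0.05 and none lower, against 2.78% of all genes. The stressed keratinocyte list had medians of 1.80, 1.99 and 2.34, and Krt6b log2 changes of 3.94 ± 0.92, 5.49 ± 0.81 and 4.08 ± 0.71. Sprr2h stood at 4.13 ± 0.52 at 6 h (adjusted p = 0.000778), 3.50 ± 0.76 at 24 h and 2.57 ± 0.65 at 48 h.

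For single genes the values at the 3 times were as follows, and the difference between times passed for none of them in edgeR. Pmaip1 had 1.45 ± 0.31 at 6 h (adjusted p = 0.034), 0.71 ± 0.31 at 24 h and 0.40 ± 0.36 at 48 h, and Epgn 2.84 ± 0.52 (adjusted p = 0.0132), 2.13 ± 0.58 and -0.43 ± 0.49. Psrc1 had 0.44 ± 0.35, 1.72 ± 0.41 and 2.09 ± 0.38 (adjusted p = 0.0187 at 48 h). Il1f5 had 0.27 ± 0.28, 1.45 ± 0.28 and 1.27 ± 0.35. The carboxylesterase gene Ces2e had -0.61 ± 0.43 at 6 h, 2.33 ± 0.51 at 24 h and 2.99 ± 0.34 at 48 h (adjusted p = 0.00016), and its 24 h values of 2.24, 8.63, 0.609, 7.74 and 8.64 CPM show 3 animals high and replicate 3 below the sham range of 0.776 to 1.63 CPM. Cell cycle genes had medians of 0.02, 0.61 and 0.91, and the hair markers -0.64, 2.60 and 1.31.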

How the data were processed

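The authors deposited 1 table of expected counts (estimated read counts per gene), of which 12.6% are not whole. Per the submitters' processing notes, the build was GRCm39 and the tools were STAR 2.7.10a, fastp 0.23.0, DESeq2 1.36.1 and bcl2fastq 2.20.422, with no role given. How reads were counted, on which annotation and with what use of strand, no source used here gives. Overlapping genes and close copies are therefore uncertain. Symbols and spans come from GENCODE vM21 (GRCm38), matching 52083 of 55416 identifiers, and the 0.0906% of counts without a symbol stayed in the test unnamed.

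Counts were rounded and scaled by TMM, and filterByExpr over 30 groups left 18677 genes. The 25 libraries of 24 h were fitted together by the two-sided quasi-likelihood test of edgeR 4.0.16 (R 4.3.3, Benjamini and Hochberg), with the title ending (R1_001 or R1, 3 and 2 per group, meaning not given) as covariate. Effects between times were tested over both times. Log2 CPM used a prior count of 2. The steps were tested on simulated data.

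The rule for named genes took the 15 largest rises, the 12 largest falls and the 10 smallest p among called genes, up to 6 called members of each list, the 30 smallest p of all genes, and 8 per direction in the other tests. Other genes were named after their values were seen. The comparison and the gene lists were chosen with earlier results of these data known. Replicates are numbered in the order of the series. P-values set a difference against the spread between animals within groups, estimated over all libraries of the fit and with sharing across genes. Alternatives used DESeq2 1.42.0, limma 3.58.1 and sva 3.50.0.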

Additional observations from a re-analysis of the deposited data

Results flagged for a closer look

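In each group of 5, a highest or lowest animal was marked when its gap to the next exceeded Dixon's 95% critical value as a share of the group's range. This was done for 94 genes and 53 list levels in both groups, 294 sets of values, of which 20 were marked. Chance marks about 1 in 20.

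Sham replicate 5 stood apart from the other sham animals in differentiation genes, with the next highest sham animal in brackets. It had 4320 CPM for Krt10 (2740), 2440 CPM for Krt1 (1730), 2790 CPM for Krt77 (1670), 11 CPM for Tgm1 (7.53) and 25 CPM for Gsdma (13.2). Its hair marker level was the highest of the sham animals as well. Sham replicate 2 was high for Il1f6 (0.663 CPM) and Sprr2h (0.969 CPM), and sham replicate 4 for Slc34a2 (3.34 CPM). Sham replicate 1 had the highest macrophage marker level (5.85) and sham replicate 3 the highest neutrophil level (1.07).

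Of the irradiated animals, replicate 4 stood above the others for Sprr1a (99.7 CPM), Cxcl1 (3.07 CPM), Mki67 (132 CPM), Krt71 (339 CPM), Tnc (44.8 CPM) and macrophage markers (5.59). Replicate 3 was low for the p53 arrest list (5.15) and the Nrf2 antioxidant list (5.38), and high for Plb1 (4.67 CPM). Replicate 1 was low for the pyroptosis list (2.49).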

How the results depend on the processing

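The 15 calls became 101 with DESeq2, 26 with only the 2 groups compared, 239 with the muscle marker level as a covariate, 55 with the mitochondrial share, 120 with 2 surrogate variables, 41 with the position block described last and 2 with the hair shaft marker level. Only the R1_001 libraries or only the R1 libraries gave 0 (1005 and 213 genes at an unadjusted p under 0.05), as did leaving out irradiated replicates 2 and 4, an alternative added after seeing the data. Leaving out 1 library gave 0 to 26 calls. The cause of these shifts was not tested, except that fewer samples entered some fits. Other scalings, limma voom, no filter, no covariate and 1 fit of all 145 libraries gave 11 to 19, the last sharing only 3 of the 15 calls (Wwox, Idi2 and Klk6). All 15 genes kept their sign in each of these fits. For 40 against 20 mJ/cm2, DESeq2 gave 292 calls against 31, and leaving out 1 library 0 to 72. For 20 against 10 mJ/cm2 it gave 94 against 10, with 2 to 24. For the change of the 20 mJ/cm2 effect, DESeq2 gave 20 for 24 h against 6 h and 17 for 48 h against 24 h where edgeR gave 0, and leaving out 1 library gave 0 to 2 and 0 to 17, the latter without 20 mJ/cm2 replicate 1 of 48 h.

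Genes with few reads, such as Idi2, Il1f6 and Aldh3b3, are limited by depth. Each animal has its own number in the labels, and no label names a pair, litter or batch across the groups. Whether animals of different groups shared a batch or day is therefore not known, and the main fit used no block for it. At 24 h, the fifth animal of each group's run of numbers had the lowest mitochondrial share in all 5 groups. Between sham and 20 mJ/cm2, libraries at the same position deviated together with r, across genes, of 0.3, 0.16, 0.54, -0.08 and 0.51, and 3 of the 5 positions matched each other best in both groups. With the position as a replicate block, added after seeing the data, the calls were 41, including all 15, and 493 for 40 against 20 and 53 for 20 against 10 mJ/cm2. What the position marks is not stated, nor what the S numbers in the R1_001 titles mark.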
